A study of Danio rerio with 12 samples.

Results

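Larvae of the panx1b knock-out line were compared with TL controls across the tissues of the body. The comparison used the 3 libraries titled panx1b knock-out and the 3 titled TL-control, which are 6 of the 12 libraries of the series. A gene entered it when it had at least 1 count in all 6 libraries, and 24860 of 31261 counted genes did. TL (Tupfel long fin) is the wild-type zebrafish strain in which the mutants were made. The panx1b-/- line carries a small homozygous deletion introduced with TALENs, a pair of designed nucleases, and is a single mutant line kept in the TL strain. Both groups were whole larvae at 6 days post fertilization (6 dpf), untreated and in light, and each library came from a pool of about 30 larvae. The remaining 6 libraries are the panx1a knock-out and double knock-out lines. With 1 mutant line, the loss of Panx1b and any other inherited difference between this line and the controls cannot be told apart. The clock hour at which the larvae were collected is not given in the sources used here, so it cannot be told apart from the genotype either.

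Pannexin 1 forms large-pore channels in the plasma membrane that release ATP, a signal that neighbouring cells read through purinergic receptors. Zebrafish have a pair of pannexin 1 genes, panx1a and panx1b, that arose by genome duplication, and panx1b has been studied mainly in the inner retina and brain. At 6 dpf the larva has a beating heart, working muscle, a gut and exocrine pancreas about to take over from the yolk, a skin studded with ion-transporting cells, and an inner ear with otoliths. RNA from whole larvae mixes all of these tissues. Fewer cells of a type and less RNA per cell cannot be told apart in such samples. The gene lists below hold known markers and were chosen with earlier results of these data known. Clock, opsin, receptor and RNA processing genes are not described as groups, and a receptor gene is named only where a tissue or function list holds it.

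The 6 libraries held between 20581029 and 29259122 counts in genes. Mitochondrial genes took 2.84% to 2.91% of the counts in 5 of them and 3.49% in panx1b-/- replicate 3, and whether that library's difference plays a part in the results was not tested. The annotation table used here gives both pannexin 1 genes the symbol PANX1 and does not say which identifier is panx1b. PANX1 (ENSDARG00000014910) was at 6.82, 5.83 and 4.63 CPM (counts scaled to a library of 1000000) in the TL libraries and at 5.79, 6.22 and 7.16 CPM in the panx1b-/- libraries. PANX1 (ENSDARG00000025285) was at 12.9, 11.8 and 14.2 CPM in TL and at 9.05, 9.81 and 9.84 CPM in panx1b-/- larvae, a log2 fold change of -0.44 ± 0.12 (SE). Neither gene passed both cut-offs of the edgeR test below, and ENSDARG00000025285 passed only the adjusted one (adjusted p = 0.0397). Scaled over all 12 libraries, ENSDARG00000025285 was lower still in the panx1a knock-out, at 3.86, 4.81 and 4.15 CPM against 13.2, 11.7 and 14.4 CPM in TL. Its lower level in panx1b-/- larvae is therefore not read as a loss of panx1b RNA. Counts over a whole gene do not show a small deletion, so they do not check the genotype.

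Differences were tested with edgeR's quasi-likelihood test and called where the Benjamini-Hochberg adjusted p-value was under 0.05 and the p-value under 0.001. Of all genes tested, 5.96% were called, 3.16% (786 genes) lower and 2.8% (696 genes) higher in panx1b-/- larvae. The 3 and 3 libraries did not overlap for 29.8% of genes. Of the 1482 called genes, 81 were clock, opsin, receptor, RNA processing or pannexin genes. Of the others, 558 carried only a clone or locus name, 297 fell in at least 1 of the tissue, function or family lists and 546 were other named genes. Because each group has 3 libraries, every gene was also refitted 6 times with 1 library left out, and the number of these fits in which a call held is given as kept in n of 6. A gene tested alone with an exact two-sided permutation test could not reach a p-value below 0.1 with 3 against 3 libraries.

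**Figure D1:**
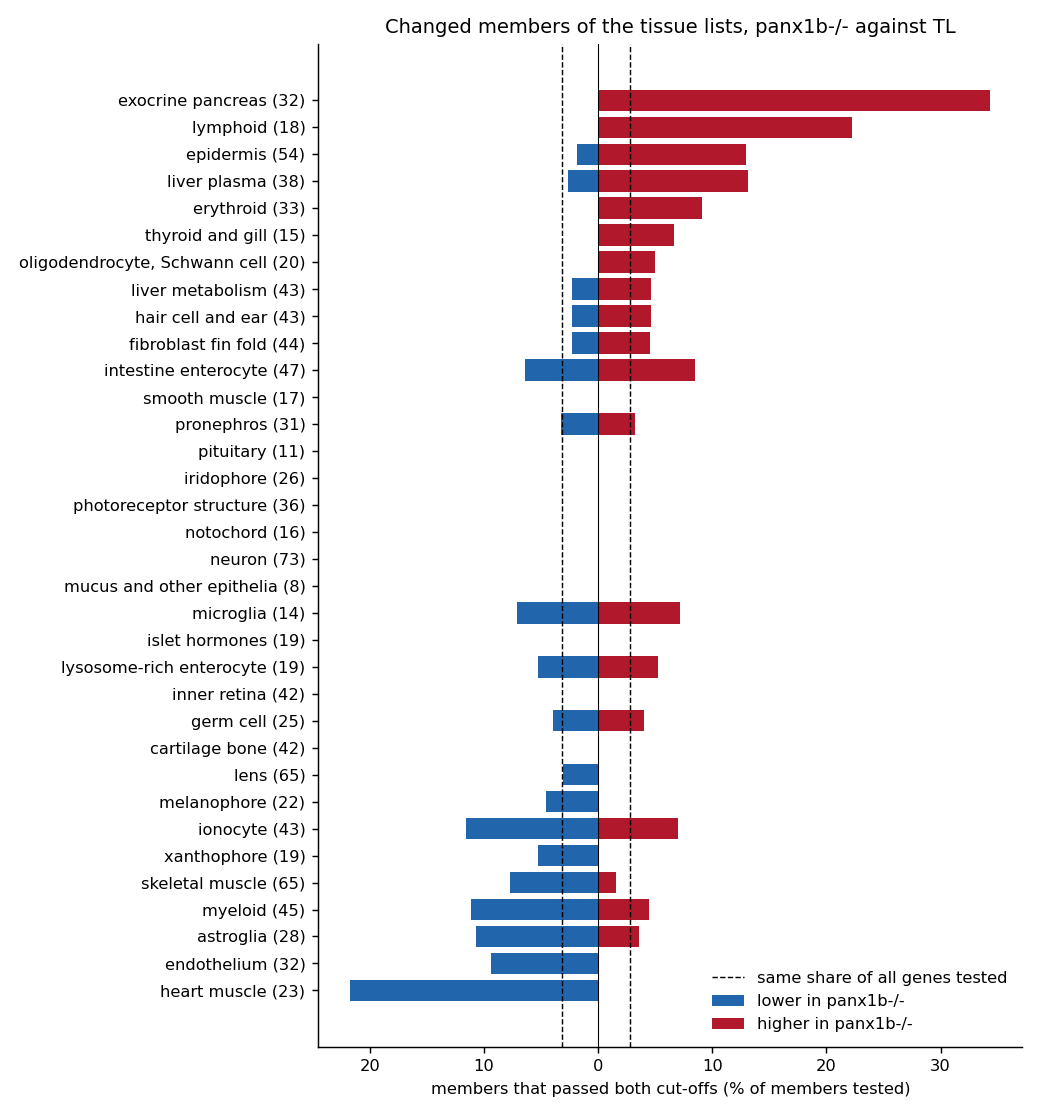
Share of the members of each tissue list that passed both cut-offs, lower in panx1b-/- larvae to the left and higher to the right (percent of members tested; the number tested is in brackets). Dashed lines mark the shares over all genes tested, 3.16% and 2.8%. The exocrine pancreas bar reaches 34.4% on the right with nothing on the left, and the heart muscle bar reaches 21.7% on the left. The neuron, inner retina and photoreceptor structure lists have no bar. Nor do islet hormones, cartilage and bone, notochord, smooth muscle, iridophore, pituitary, and mucus and other epithelia.

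Genes of the exocrine pancreas were higher in panx1b-/- larvae. Of 32 tested members, 11 rose and 0 fell (34.4% called, against 5.96% of all genes), and 26 of the 32 had a positive log2 fold change. The median log2 fold change of the list was 0.57, while that of all genes was 0.01. The pancreatic amylase gene amy2al2 was at 41.6, 62.9 and 45.0 CPM in TL and at 142, 212 and 231 CPM in panx1b-/- larvae, so that the lowest mutant library exceeded the highest control more than the controls differed among themselves. Its log2 fold change was 1.97 ± 0.19 (adjusted p = 0.000101). The elastase gene cela1.3 was at 3.94, 4.55 and 3.10 CPM in TL and at 13.5, 19.4 and 17.1 CPM in the mutants (log2 fold change 2.12 ± 0.18, adjusted p = 3.8e-05). CPA1 (ENSDARG00000030915), a carboxypeptidase that trims amino acids from the end of dietary peptides, rose from 47.7, 56.8 and 67.4 CPM to 97.9, 150.1 and 119 CPM (log2 fold change 1.09 ± 0.16, adjusted p = 0.0017). These 3 genes kept their calls in 6 of 6 fits. Other members that rose included cela1.5 (1.30 on the log2 scale), both CEL genes of bile salt-activated lipase (1.08 and 0.91), PLA2G1B (secreted phospholipase A2; 0.81), CELA1 (ENSDARG00000017314; 0.70) and SYCN (ENSDARG00000103687; a zymogen granule protein; 0.48).

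The most abundant trypsinogen gene did not pass. prss1 was at 573, 687 and 786 CPM in TL and at 696, 1103 and 1015 CPM in panx1b-/- larvae, with a log2 fold change of 0.46 ± 0.18 (adjusted p = 0.128). prss59.2, another trypsinogen, differed by 0.54 ± 0.18 on the log2 scale (adjusted p = 0.0815). In both genes panx1b-/- replicate 1 lay within the range of the controls. Summed over the list, TL libraries held 3765 to 4955 CPM and mutant libraries 4869 to 7489 CPM, and the ranges overlapped through the same replicate. Without panx1b-/- replicate 2 or without replicate 3, only 6 members were called higher, and without panx1b-/- replicate 1 there were 14. The calls of CELA1 and SYCN were kept in 1 of 6 fits, lost without any TL library or panx1b-/- replicate 2 or 3, with adjusted p-values of up to 0.0623 and 0.0605. The CEL gene ENSDARG00000029822 kept its call in 2 of 6 fits (lost without TL replicate 1 or 2 or panx1b-/- replicate 2 or 3, adjusted p up to 0.0672). ENSDARG00000017490, the other CEL gene, kept its call in 4 of 6 (lost without panx1b-/- replicate 2 or 3, adjusted p up to 0.0416).

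Along the intestine, genes moved both ways. Of 47 enterocyte genes tested, 4 rose and 3 fell (14.9% called), and the median log2 fold change was 0.06. FABP6, which carries bile acids through enterocytes of the distal gut, was at 680.2, 449 and 595 CPM in TL and at 1132, 1335 and 1157 CPM in panx1b-/- larvae (log2 fold change 1.07 ± 0.16, adjusted p = 0.00151, kept in 6 of 6). It was among the 5 most abundant genes called higher. tmprss15, the enteropeptidase that activates trypsinogen in the gut lumen, rose from 9.92, 7.40 and 6.91 CPM to 17.6, 18.6 and 14.3 CPM (1.06 ± 0.16 on the log2 scale, adjusted p = 0.00202). A pair of neighbouring chitinase genes went opposite ways: chia.3 had a log2 fold change of 1.68 ± 0.24 and chia.1 of -0.67 ± 0.12 (adjusted p = 0.00157 and 0.00406). The apolipoprotein gene apoa4b.3 fell from 8.37, 15.1 and 14.1 CPM to 4.16, 3.29 and 3.51 CPM (-1.78 ± 0.22, adjusted p = 0.000528). These 4 genes kept their calls in 6 of 6 fits and their groups did not overlap. The calls of MEP1B (ENSDARG00000037533; meprin, 0.50) and ANPEP (ENSDARG00000103878; aminopeptidase N, -0.61) were kept only without TL replicate 2, with adjusted p-values of up to 0.0461 and 0.0731 otherwise. Without TL replicate 2, 5 members fell.

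Among 38 genes of proteins that the liver secretes into plasma, 5 rose and 1 fell (15.8% called, median log2 fold change 0.31). F10, coagulation factor X, was at 28.7, 21.1 and 30.2 CPM in TL and at 69.1, 74.8 and 66.3 CPM in panx1b-/- larvae, groups far apart and each narrow (log2 fold change 1.39 ± 0.13, adjusted p = 7.23e-05). The fetuin genes ahsg1 and ahsg2, whose products bind calcium phosphate in plasma, had log2 fold changes of 1.22 ± 0.14 and 1.93 ± 0.24 (adjusted p = 0.000322 and 0.000614). All 3 were kept in 6 of 6 fits. kng1, the kininogen gene (0.64), lost its call without panx1b-/- replicate 2 or 3 (adjusted p up to 0.0372), and apom, an apolipoprotein (0.76), lost it without TL replicate 3 or any panx1b-/- library (up to 0.0687), so that 3 members stayed called higher without panx1b-/- replicate 2 or 3. hpxb, a gene of the heme carrier hemopexin, fell by 1.33 on the log2 scale (kept in 3 of 6, lost without TL replicate 3 or panx1b-/- replicate 1 or 2, adjusted p up to 0.0419). apoa1b, the most abundant plasma apolipoprotein gene after apobb.1, was at 2298, 2080.3 and 2848 CPM in TL and at 2696, 3415 and 4049 CPM in the mutants and did not pass (0.49 ± 0.18, adjusted p = 0.111). Complement and acute phase genes, whose plasma proteins also come largely from the liver, went mostly the other way. Of 49 tested, 7 fell and 1 rose (16.3% called), 35 were negative and the median log2 fold change was -0.30. cfh, the gene of complement factor H, was at 45.4, 30.6 and 31.1 CPM in TL and at 19.9, 18.1 and 20.5 CPM in panx1b-/- larvae (-0.87 ± 0.15, adjusted p = 0.00414, lost only without panx1b-/- replicate 2, adjusted p = 0.0292). The other members that fell were the C-reactive protein genes crp3 (-0.98) and crp5 (-1.95), mbl2 (a mannose-binding lectin; -0.82), cfd (complement factor D; -0.64), c4b (complement C4; -1.76) and serping1 (the C1 inhibitor; -1.64), kept in 2 to 4 of 6 fits. ITLN1 (ENSDARG00000095082), an intelectin, rose (0.89). The number called lower was 12 without TL replicate 2, 3 without panx1b-/- replicate 1 and 2 without panx1b-/- replicate 2. serpina10a, a gene of the serpin family, also fell (-0.96 ± 0.14, adjusted p = 0.00181, kept in 6 of 6).

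Of 43 genes of liver metabolism, 2 rose and 1 fell (6.98%), close to the share over all genes.

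Several keratin genes of the skin were higher in panx1b-/- larvae. Of 54 epidermal genes tested, 7 rose and 1 fell (14.8% called), 43 had a positive log2 fold change and the median was 0.20. The type I keratin gene cyt1 was at 1110.2, 1665 and 1394 CPM in TL and at 4136, 3738 and 2869.8 CPM in the mutants (log2 fold change 1.37 ± 0.19, adjusted p = 0.00102). Its relative cyt1l was at 90.3, 187 and 174 CPM in TL and at 1107, 957 and 772 CPM in the mutants (2.65 ± 0.25, adjusted p = 6.83e-05). In each gene the lowest mutant library lay well above the highest control. PKP1, which encodes the desmosome protein plakophilin 1, rose from 11.3, 18.9 and 16.5 CPM to 39.2, 34.7 and 30.6 CPM (1.16 ± 0.17, adjusted p = 0.00151), and these 3 genes kept their calls in 6 of 6 fits. Of 23 keratin genes, 4 rose and 1 fell (21.7% called, against 5.96% of all genes). The 4 that rose are also among the 7 epidermal genes, so this is not a separate result. The 1 that fell, krt99, went from 5.76, 7.73 and 6.38 CPM to 2.13, 2.31 and 1.32 CPM (-1.78 ± 0.22, adjusted p = 0.000574, kept in 6 of 6). cyt1 and cyt1l are closely related sequences, so reads could have been split between them.

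Keratin genes, several of them members of the epidermal list, summed to 16041 to 18434 CPM in TL and 21444 to 29231 CPM in panx1b-/- libraries. The summed level of the whole epidermal list, in which these keratins weigh heavily, was 20239 to 22778 CPM in TL and 26016 to 34767 CPM in panx1b-/- libraries, without overlap. The most abundant member, krt4, was at 5007, 5811 and 6152 CPM in TL and at 10327, 8572 and 7792 CPM in the mutants, but passed only the adjusted cut-off (0.65 ± 0.17, adjusted p = 0.032). krt5 overlapped between the lines (0.39 ± 0.16, adjusted p = 0.149). krt1-19e rose from 1333, 1148 and 1451 CPM to 2798, 2380.2 and 1894 CPM (0.85 ± 0.16, adjusted p = 0.00748), a call lost without TL replicate 1 or 2 or panx1b-/- replicate 1 or 2 (adjusted p up to 0.0408). Among tight junction genes, cldne had a log2 fold change of 0.60 (lost without TL replicate 2 or 3 or panx1b-/- replicate 1, adjusted p up to 0.0347). That of cldn1 was -0.62 (lost without TL replicate 1 or 3 or panx1b-/- replicate 1, adjusted p up to 0.0538). Of 37 claudin genes tested, these were the only 2 called (5.41%, near the 5.96% of all genes). Without TL replicate 2 or without panx1b-/- replicate 1, 4 epidermal members were called higher, and without panx1b-/- replicate 3 there were 9. Among genes singled out after their values were seen, col7a1, the collagen of the fibrils that anchor the epidermis, rose by 0.77 ± 0.12 on the log2 scale (adjusted p = 0.00271, kept in 6 of 6).

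**Figure D2:**
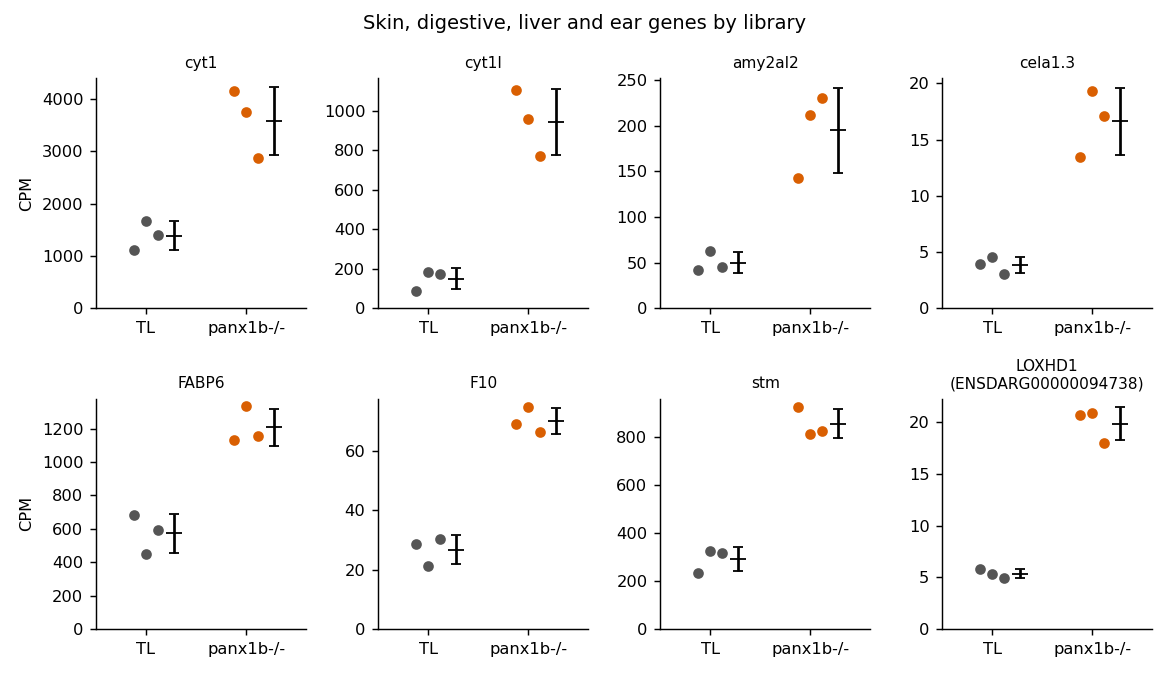
CPM of 8 genes in each library of TL (grey) and panx1b-/- larvae (orange), each on its own linear axis from 0; bars give the mean and SD of 3 libraries. In all 8 panels, such as amy2al2 at 142 to 231 CPM against 41.6 to 62.9 CPM, the panx1b-/- libraries lie above the TL libraries.

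Genes of the heart muscle list were lower. Whole-larva RNA does not show how much of their RNA came from the heart rather than from other muscle. Of 23 tested members, 5 fell and 0 rose (21.7% called), 21 had a negative log2 fold change and the median was -0.39. atp2a2a encodes SERCA2, a pump that returns calcium to the sarcoplasmic reticulum of muscle. It was at 90.1, 86.0 and 109 CPM in TL and at 57.2, 52.0 and 43.0 CPM in panx1b-/- larvae, without overlap (log2 fold change -0.91 ± 0.13, adjusted p = 0.00123). tnnc1a, a cardiac troponin C, fell from 6.60, 6.36 and 7.80 CPM to 3.12, 3.15 and 3.34 CPM (-1.11 ± 0.16, adjusted p = 0.00132). Both were kept in 6 of 6 fits. The other 3 were MYH7 (a myosin heavy chain; -0.85), alpk3a (a muscle kinase; -0.82) and MYL7 (a cardiac myosin light chain; -0.67), kept in 2, 1 and 1 of 6 fits with adjusted p-values of up to 0.0468, 0.0561 and 0.031. Without TL replicate 1 or 3, or panx1b-/- replicate 2 or 3, 2 members of the list stayed called. Without panx1b-/- replicate 1, 4 did. The list summed to 411 to 491 CPM in TL and 279 to 347 CPM in the mutants.

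In skeletal muscle the most abundant contractile genes stayed within the spread of the libraries. Of 65 tested members, 5 fell and 1 rose (9.23% called), 49 had a negative log2 fold change and the median was -0.20. The fast-muscle genes tpma (tropomyosin), pvalb1 (parvalbumin) and actc1b (actin) overlapped between the lines. The members that fell were PYGM (ENSDARG00000055518), muscle glycogen phosphorylase (-0.78 ± 0.14, adjusted p = 0.00597), smyhc1, the myosin heavy chain of slow fibres (-0.71 ± 0.15, adjusted p = 0.0133), PGAM2, the muscle phosphoglycerate mutase (-0.70), and hsp90aa1.1 and SMYD1 (ENSDARG00000091253), which in zebrafish help fold muscle myosin (-0.69 and -0.73). ACTA1 (ENSDARG00000055618), a skeletal actin, rose by 0.72 on the log2 scale. These 6 calls were fragile: 0 members were called lower without TL replicate 3, 1 without panx1b-/- replicate 1 and 2 without panx1b-/- replicate 2 or 3. The number called lower was 3 without TL replicate 1 and 7 without TL replicate 2. ACTA1 lost its call without TL replicate 1 or 2 or panx1b-/- replicate 1 or 2 (adjusted p up to 0.0708).

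Beyond the lists, several genes of the muscle cell's structure were lower, chosen here after their values were seen. DES (ENSDARG00000058656), the intermediate filament desmin, was at 285, 252 and 340.4 CPM in TL and at 159, 167 and 129 CPM in panx1b-/- larvae (log2 fold change -0.95 ± 0.13, adjusted p = 0.00136). XIRP2 (ENSDARG00000091090), an actin-binding protein of the muscle-tendon junction and intercalated disc, fell from 286, 225 and 251 CPM to 125, 125 and 85.9 CPM (-1.18 ± 0.15, adjusted p = 0.000625). synpo2la (-1.49), sgcg, the gamma-sarcoglycan of the membrane complex around dystrophin (-1.06), and igfn1.3 (-1.21) also fell, and all 5 were kept in 6 of 6 fits. Each of the paired genes DES and XIRP2 had a second copy that did not pass: the log2 fold changes of DES (ENSDARG00000005221) and XIRP2 (ENSDARG00000071113) were 0.36 and -0.31 (adjusted p = 0.184 and 0.188). The embryonic myosin gene myhc4 was at 21.2, 12.9 and 21.0 CPM in TL and at 1.18, 1.82 and 0.922 CPM in the mutants (-3.81 ± 0.26, adjusted p = 8.62e-06).

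Of 50 glycolysis and gluconeogenesis genes, 7 fell and 0 rose (14% called), with a median log2 fold change of -0.12. LDHB, a lactate dehydrogenase subunit, was at 440.4, 423 and 451 CPM in TL and at 227, 233 and 201 CPM in panx1b-/- larvae, a gap many times the spread within either line (-0.99 ± 0.10, adjusted p = 0.000128). FBP2, the muscle fructose bisphosphatase, fell from 13.0, 11.7 and 18.1 CPM to 5.61, 4.48 and 5.27 CPM (-1.48 ± 0.18, adjusted p = 0.000469). PCK1, which makes phosphoenolpyruvate in gluconeogenesis, fell from 204, 194 and 244 CPM to 79.2, 108 and 116 CPM (-1.08 ± 0.15, adjusted p = 0.000927), and PKM (ENSDARG00000099860), a pyruvate kinase, by 0.76 ± 0.13 on the log2 scale (adjusted p = 0.00422). These 4 were kept in 6 of 6 fits. PGAM2, pgam1a (-0.64) and PFKM (ENSDARG00000014179; phosphofructokinase; -0.81) were kept in 1, 3 and 2 of 6 (adjusted p up to 0.0547, 0.0528 and 0.0582), and 4 members stayed called without TL replicate 3 or without panx1b-/- replicate 1.

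**Figure D3:**
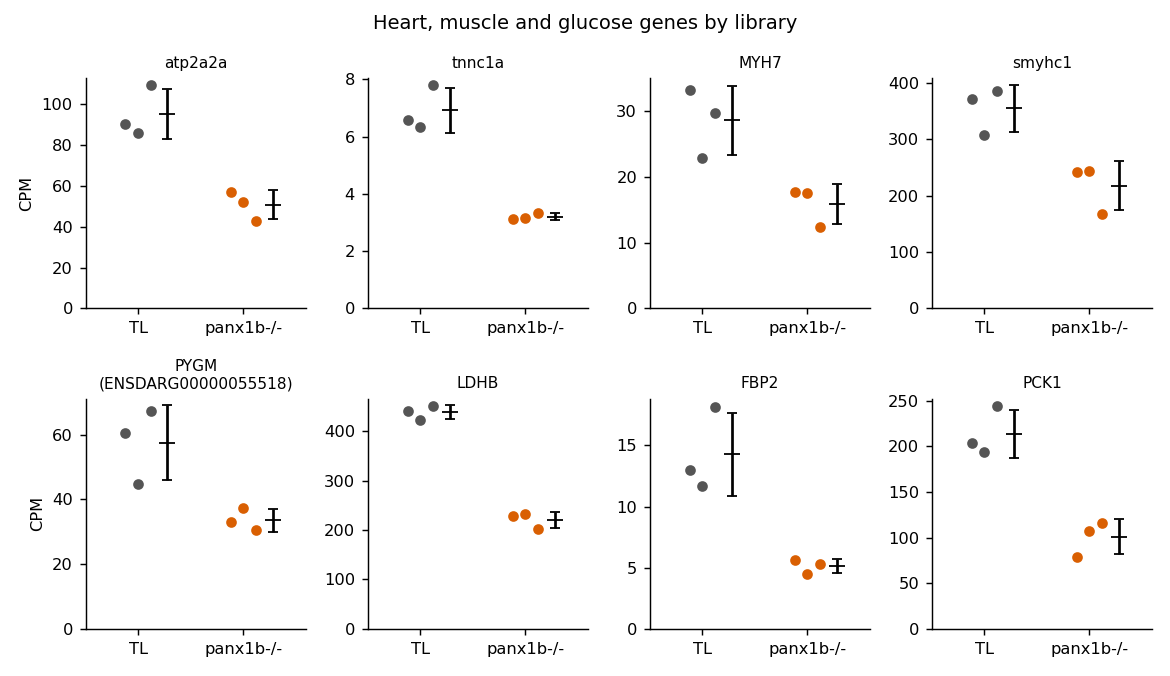
CPM of 8 genes of heart, muscle and glucose metabolism in each library of TL (grey) and panx1b-/- larvae (orange), on linear axes from 0; bars give the mean and SD of 3 libraries. In all 8 panels the panx1b-/- libraries lie below the TL libraries, as for LDHB at 201 to 233 CPM against 423 to 451 CPM.

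Ionocytes are skin cells that take up sodium, calcium and chloride from fresh water and excrete acid and ammonia. Of 43 ionocyte genes tested, 5 fell and 3 rose (18.6% called), and the median log2 fold change was -0.04. The summed level of the list was higher in the mutants, at 2900 to 3062 CPM against 2711 to 2866 CPM in TL, without overlap. RHCG (ENSDARG00000007080), an ammonia channel gene, was at 192, 90.1 and 115 CPM in TL and at 39.1, 35.4 and 33.3 CPM in panx1b-/- larvae (-1.88 ± 0.23, adjusted p = 0.000444). A second RHCG gene (ENSDARG00000003203) fell from 225, 116 and 151 CPM to 57.5, 54.9 and 40.8 CPM (-1.68 ± 0.21, adjusted p = 0.000635). TL replicate 1 was the highest library in both, yet the lowest control still lay above every mutant library. slc9a3.2, a sodium-proton exchanger, fell by 1.12 ± 0.14 and ca15a, a carbonic anhydrase, by 0.84 ± 0.14 on the log2 scale (adjusted p = 0.00064 and 0.0033). The sodium pump gene atp1a1a.5 had a log2 fold change of -1.74 ± 0.34 and kept its call in 2 of 6 fits (lost without TL replicate 3 or any panx1b-/- library, adjusted p up to 0.0382).

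Higher in the same list were SLC8A1 (ENSDARG00000043406), a sodium-calcium exchanger, at 39.8, 53.7 and 43.7 CPM in TL and 78.2, 72.2 and 86.3 CPM in panx1b-/- larvae (0.79 ± 0.12, adjusted p = 0.00219), and IGFBP5 (ENSDARG00000039264), an insulin-like growth factor binding protein of calcium-transporting ionocytes in zebrafish (1.39 ± 0.20, adjusted p = 0.00154). The sodium pump gene atp1a1a.4 was called with a log2 fold change of 0.49, but in 0 of the 6 fits with 1 library left out (adjusted p up to 0.0662). Both RHCG genes, slc9a3.2, ca15a, SLC8A1 and IGFBP5 were kept in 6 of 6 fits. Outside the list, the urea transporter SLC14A2 was at 26.7, 14.2 and 17.5 CPM in TL and at 1.04, 1.78 and 0.790 CPM in the mutants (-4.01 ± 0.30, adjusted p = 1.56e-05). ca15c, another carbonic anhydrase, fell from 12.2, 3.46 and 7.34 CPM to 0.362, 0.222 and 0.263 CPM (-4.74 ± 0.51, adjusted p = 0.000206). The phosphate transporter slc34a2b rose from 7.13, 11 and 7.62 CPM to 36.0, 34.2 and 50.7 CPM (2.24 ± 0.19, adjusted p = 3.79e-05). Its relative SLC34A2 (ENSDARG00000012903) went the other way, from 12.2, 15.5 and 17.5 CPM to 6.51, 7.02 and 8.65 CPM (-1.03 ± 0.16, adjusted p = 0.00261).

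Genes known to be induced by glucocorticoids were lower in panx1b-/- larvae. Cortisol, the fish stress hormone, acts through the glucocorticoid receptor to switch on such genes, and several of them also follow the time of day. Of 30 tested members, 9 fell and 1 rose (33.3% called), with a median log2 fold change of -0.23. FKBP5, a chaperone that feeds back on the receptor, was at 97.0, 146 and 153 CPM in TL and at 34.5, 30.9 and 39.8 CPM in the mutants (-1.91 ± 0.17, adjusted p = 4.27e-05). KLF9, a transcription factor, fell from 202, 243 and 225 CPM to 97.0, 108 and 94.8 CPM (-1.16 ± 0.10, adjusted p = 4.93e-05). The transcription factor CEBPD was at 198, 228 and 236 CPM in TL and at 123, 125 and 115 CPM in the mutants (-0.87 ± 0.10, adjusted p = 0.000329). PCK1, given above, is the fourth of these that kept its call in 6 of 6 fits. NR3C2, the mineralocorticoid receptor, rose from 35.8, 40.3 and 37.2 CPM to 56.8, 56.4 and 51.5 CPM (0.54 ± 0.09, adjusted p = 0.00401; lost only without TL replicate 3, adjusted p = 0.0298). The receptor itself, NR3C1, was at 140 to 143 CPM in TL and at 126 to 138 CPM in the mutants.

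The remaining members that fell were DDIT4 (-0.85), hsd20b2, a cortisol-inactivating enzyme of fish (-0.65), DUSP1 (-0.65), FOXO1 (ENSDARG00000099555; -0.49) and tsc22d3 (-0.41). They kept their calls in 4, 4, 3, 4 and 1 of 6 fits, with adjusted p-values of up to 0.0326, 0.0334, 0.0511, 0.0365 and 0.0905, and each lost its call without TL replicate 3. Without that library 4 members stayed called lower. Immediate early genes, which are transcribed within minutes of a stimulus, gave 7 lower and 1 higher of 41 tested (19.5% called), with 37 of 41 negative and a median of -0.44. NR4A1, a nuclear receptor of this class, fell from 18.5, 19.6 and 21.3 CPM to 8.19, 7.24 and 5.93 CPM (-1.48 ± 0.14, adjusted p = 6.84e-05). SOCS3 (ENSDARG00000025428), a brake on cytokine signalling, fell from 22.4, 32.2 and 32.9 CPM to 13.7, 11.8 and 15.0 CPM (-1.11 ± 0.16, adjusted p = 0.00126), and ier2a by 1.03 ± 0.11 on the log2 scale (adjusted p = 0.000231). klf2b rose (0.71 ± 0.11, adjusted p = 0.00251). These 4 genes were kept in 6 of 6 fits, while the number of members called lower was 3 without TL replicate 3 or panx1b-/- replicate 2 and 11 without TL replicate 1.

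**Figure D4:**
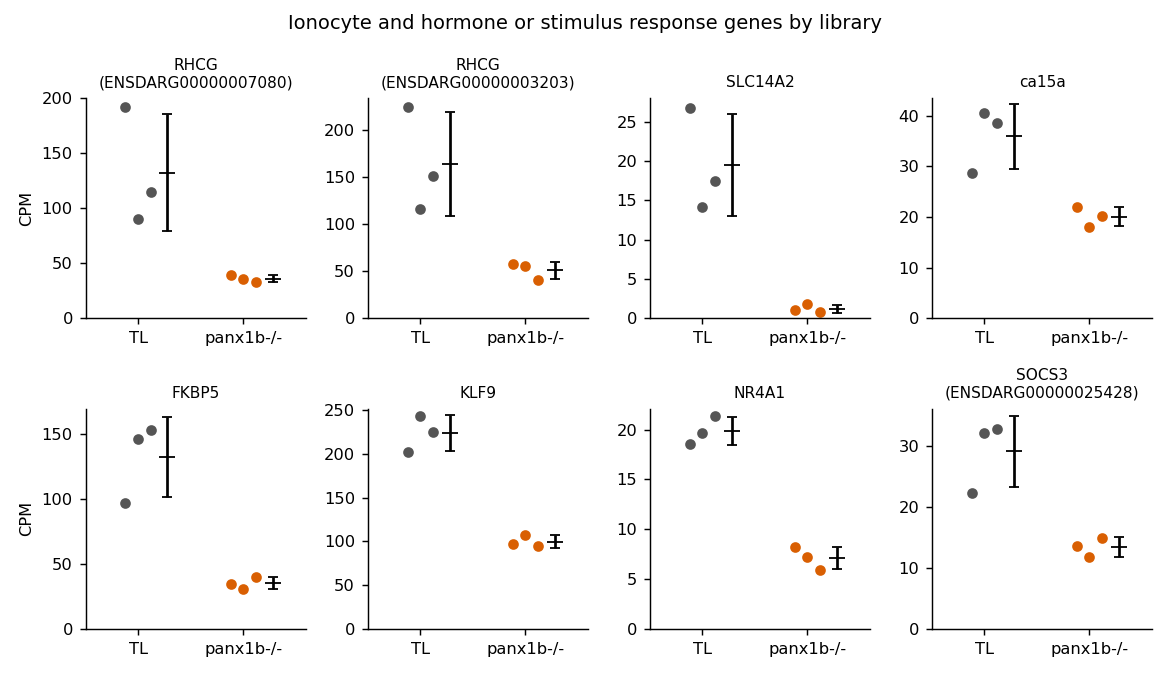
CPM of 4 ionocyte or urea transport genes (top) and 4 hormone or stimulus response genes (bottom) in each library of TL (grey) and panx1b-/- larvae (orange), on linear axes from 0; bars give the mean and SD of 3 libraries. In all 8 panels the groups do not overlap; TL replicate 1, the leftmost grey point, is the highest control for both RHCG genes and the lowest for FKBP5, at 97.0 CPM.

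Otolith and hair cell genes of the inner ear split. The secreted otolith matrix gene stm (starmaker) was at 233, 322 and 317 CPM in TL and at 923, 813 and 826 CPM in panx1b-/- larvae (1.55 ± 0.14, adjusted p = 5.2e-05). LOXHD1 (ENSDARG00000094738), a membrane protein of hair cell stereocilia, rose from 5.76, 5.36 and 4.95 CPM to 20.7, 20.9 and 18.0 CPM (1.89 ± 0.13, adjusted p = 6.16e-06). TMC1, part of the mechanotransduction channel at the tips of the same stereocilia, fell from 7.53, 7.26 and 7.44 CPM to 2.76, 2.04 and 1.98 CPM (-1.71 ± 0.18, adjusted p = 0.000133). All 3 were kept in 6 of 6 fits. The other 40 of 43 tested members did not pass, and the share called, 6.98%, was near that of all genes. Of the 43, 30 were positive (median 0.14). The summed level was 1080 to 1213 CPM in TL and 1727 to 1868 CPM in panx1b-/- libraries, without overlap, and stm weighs heavily in it. Without TL replicate 1 or without panx1b-/- replicate 3, 4 members were called higher.

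Immune cells gave mixed counts. Of 45 myeloid genes, 5 fell and 2 rose (15.6% called, median -0.35). grna.2, a granulin, fell from 14.7, 5.93 and 9.87 CPM to 2.35, 1.78 and 1.45 CPM (-2.45 ± 0.32, adjusted p = 0.0007, kept in 6 of 6). MPEG1 (ENSDARG00000043093), the pore-forming protein that marks macrophages in zebrafish, was at 64.1, 24.3 and 54.1 CPM in TL and at 20.2, 17.5 and 16.5 CPM in panx1b-/- larvae (-1.40 ± 0.27, adjusted p = 0.00819). TL replicate 2 was the lowest control here and close to the mutants, and MPEG1 kept its call only without TL replicate 1 or 2 (adjusted p up to 0.0457 otherwise). Without TL replicate 2, 13 myeloid genes were called lower, and without TL replicate 3 or any 1 panx1b-/- library 3 were. cd74a, the chain that guides peptide loading of MHC class II, rose from 0.886, 1.38 and 1.92 CPM to 5.47, 6.22 and 5.84 CPM (2.04 ± 0.24, adjusted p = 0.000419). Of 18 lymphoid genes, 4 rose and 0 fell (22.2% called, median 0.47): RAG1, a subunit of the recombinase that assembles antigen receptors, went from 5.49, 9.11 and 9.12 CPM to 23.2, 18.6 and 16.6 CPM (1.29 ± 0.19, adjusted p = 0.00186), and CCR9 (ENSDARG00000099738), a receptor that draws progenitors to the thymus, rose by 1.58 ± 0.21 on the log2 scale (adjusted p = 0.00102). Both were kept in 6 of 6 fits, whereas RAG2 (1.16) and TCF7 (0.59) passed in 0 of 6 (adjusted p up to 0.0701 and 0.0615), and 2 members stayed called without TL replicate 1 or any 1 panx1b-/- library.

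**Figure D5:**
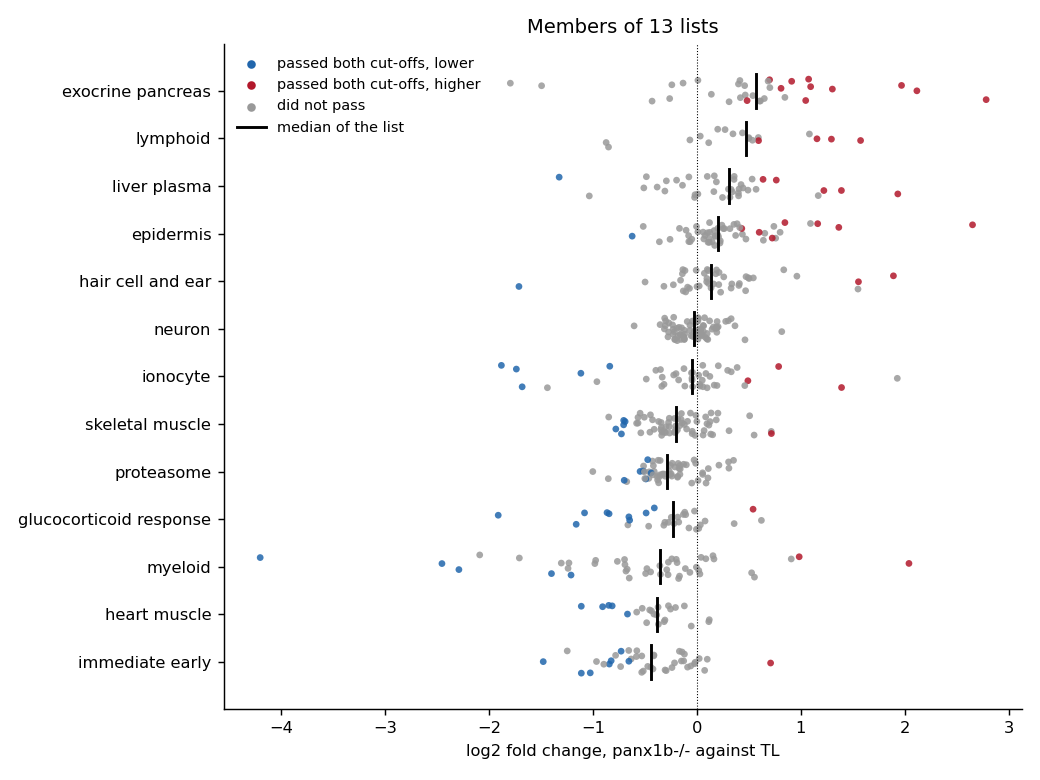
Log2 fold change (panx1b-/- against TL, x axis) of every tested member of 13 lists, blue or red where both cut-offs were passed and grey otherwise, with the list median as a black bar. Exocrine pancreas has the highest median (0.57) and immediate early genes the lowest (-0.44), and most members of each list are grey.

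Genes of neurons and the eye were described from 4 lists, with astroglia beside them. Of 73 neuronal genes, 0 were called by edgeR, 3 had an unadjusted p-value under 0.05 and 1 passed both cut-offs with DESeq2. Their median was -0.03. Over all 24860 genes tested, 1482 were called by edgeR (5.96%), 6266 had an unadjusted p-value under 0.05 and 1949 passed with DESeq2. The list counts below are to be read against these. The abundant synaptic vesicle gene SYT1 was at 169, 259.7 and 188 CPM in TL and at 176, 236 and 289.9 CPM in panx1b-/- larvae, overlapping ranges. In the inner retina, the site of most panx1b work, 0 of 42 genes passed with either tool and 7 had an unadjusted p-value under 0.05. Of 36 structural photoreceptor genes, 0 passed with edgeR and 2 with DESeq2, and 10 had an unadjusted p-value under 0.05. Members of that list were negative in 29 of 36 cases (median -0.19), and its summed level was 1033 to 1096 CPM in TL and 843 to 945 CPM in panx1b-/- libraries, without overlap. Outside the nervous system, cartilage and bone also gave 0 of 42 with edgeR, 2 with DESeq2 and 8 at an unadjusted p-value under 0.05. CNGA3 (ENSDARG00000012297), a subunit of the cone light-response channel and singled out after its values were seen, was at 12.4, 12 and 11.9 CPM in TL and at 4.75, 4.75 and 5.58 CPM in the mutants (-1.27 ± 0.13, adjusted p = 0.000134, kept in 6 of 6). Its second copy, CNGA3 (ENSDARG00000070726), did not pass (log2 fold change -0.18, adjusted p = 0.56). Further eye genes singled out after their values were seen were lower too. guca1c, a guanylate cyclase activator of photoreceptors, fell from 37.6, 34.7 and 33.2 CPM to 15.5, 17.7 and 22.2 CPM (-0.93 ± 0.13, adjusted p = 0.00129). It, STOML3 (-0.85) and RCVRN (ENSDARG00000009637; recoverin; -0.59) were kept in 6 of 6 fits, while guca1d (-1.06) and ARR3 (ENSDARG00000056511; cone arrestin; -0.53) were kept in 1 and 2 of 6 (adjusted p up to 0.0694 and 0.0429). A second RCVRN gene (ENSDARG00000019902) did not pass (-0.15, adjusted p = 0.437). A second ARR3 gene (ENSDARG00000098475) passed only the adjusted cut-off (-0.64, adjusted p = 0.0183). Of 65 lens genes, 2 fell and 0 rose (3.08%, median -0.27), and 48 were negative. Without panx1b-/- replicate 2, 10 lens genes were called lower. Among astroglial genes, 3 of 28 fell and 1 rose (14.3%), led by mfge8a, a secreted phagocytosis bridge, at 33.5, 32.8 and 33.4 CPM in TL and 15.7, 16.4 and 16.2 CPM in the mutants (-1.04 ± 0.09, adjusted p = 4.57e-05).

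Most proteasome genes had small negative log2 fold changes. Of 58 subunits and regulators, 6 fell and 0 rose (10.3% called), 48 were negative and the median log2 fold change was -0.29. PSMB6, a catalytic subunit, fell from 38.9, 32.8 and 38.8 CPM to 22.0, 24.6 and 21.4 CPM (-0.70 ± 0.11, adjusted p = 0.00212, kept in 6 of 6). The regulatory particle subunits PSMD1, PSMC4, PSMD13, PSMD6 and PSMD12 had log2 fold changes between -0.55 and -0.44. Their calls were kept in 4, 5, 4, 2 and 1 of 6 fits (adjusted p up to 0.0298, 0.0297, 0.0371, 0.0735 and 0.0784), and all 5 lost them without TL replicate 3, after which 1 member stayed called. Without panx1b-/- replicate 2 there were 2, and without TL replicate 2 there were 12. Ribosomal protein genes gave 0 of 84 with edgeR, 4 with DESeq2 and 11 at an unadjusted p-value under 0.05, with 69 of 84 negative and a median of -0.11. Over all 24860 genes tested the same counts were 1482, 1949 and 6266. The difference between the proteasome and ribosome lists was not tested.

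The named genes with the largest changes and a mean of at least 1 CPM were scattered over functions. Lower in panx1b-/- larvae were ly6m3, sult1st7 (a sulfotransferase), ca15c, taco1 (a mitochondrial translation factor), DHRS7C (ENSDARG00000039453; a retinol dehydrogenase of the muscle reticulum), SLC14A2, myhc4, ifi27.2, znf977 and coro2ab (a coronin, which binds actin), with log2 fold changes between -6.23 and -3.35. taco1 was at 5.85, 7.68 and 6.77 CPM in TL and at 0.271, 0.222 and 0.307 CPM in the mutants (-4.63 ± 0.25, adjusted p = 1.53e-06). The fold change of ly6m3 rests on 1, 1 and 3 counts in the mutant libraries, against 108, 123 and 202 in TL, and its fitted value depends on the prior count. Higher were vmo1a, TEX11, mhc1uba, clca1, aifm5, znf1107, CYTH3 (ENSDARG00000089829), CRYM, ccdc15 and epx, between 2.77 and 3.87. clca1, a secreted regulator of chloride channels in mucous epithelia, rose from 5.58, 2.09 and 3.03 CPM to 36.1, 37.0 and 34.5 CPM (3.33 ± 0.25, adjusted p = 1.41e-05). CRYM, a thyroid hormone binding protein, rose from 1.33, 1.52 and 1.25 CPM to 9.95, 10.7 and 8.87 CPM (2.85 ± 0.17, adjusted p = 3.01e-06). epx, a granule peroxidase, rose from 1.11, 1.33 and 1.99 CPM to 11.3, 9.46 and 10 CPM (2.77 ± 0.21, adjusted p = 1.49e-05). All 20 were kept in 6 of 6 fits. In a fit of all 12 libraries, the effect of losing panx1b on the panx1a-null background differed from that on the TL background for 18 of these 20 genes, against 9.27% of all genes tested in that fit, and since the 20 were picked for a large change in 1 of the backgrounds nothing is read from that count.

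Genes near panx1b on the chromosome can differ between a mutant line and its controls through inherited linked sequence. Among the 20 annotated neighbours on each side in the RefSeq annotation of assembly GRCz12tu, 29 were tested and 3 were called (10.3%). gucy2d, a guanylate cyclase of photoreceptors, fell by 0.64 on the log2 scale, 1 gene known only by a clone name fell by 1.24 and another rose by 0.91. Among the 100 on each side, 145 were tested, 8 fell and 6 rose (9.66%), against 5.96% of all genes. One of those that fell was hsd20b2, given above with the glucocorticoid response genes, at position 23 on its side of panx1b. The part of linked sequence in any of these was not tested.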

How the data were processed

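RNA-seq was performed on whole zebrafish larvae of 4 lines, 3 libraries each. The authors deposited whole-number counts per gene, with no normalization. Per the labels the libraries were made with a directional kit and sequenced in paired ends. The submitters' processing notes name bcl2fastq 2.17, FastQC 0.11.2, Trim Galore 0.4.4, TopHat2 2.0.11, HTSeq 0.6.1p2 and danRer11, without roles. The study's methods describe a transcript-level analysis that the deposited counts do not hold. The strand setting of the counting is not given in the sources used here, so overlapping or antisense genes may share reads, and close paralogs may split them.

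Counts of the 3 panx1b-/- and 3 TL libraries were fitted with edgeR 4.0.16 in R 4.3.3 (TMM, glmQLFit, glmQLFTest) over genes detected with 1 or more counts in each of them. A call met both cut-offs that the report states. CPM values are per TMM-scaled library. Library totals of 20581029 to 29259122 counts limit the precision of low genes. On simulated counts with 200 genes of at least 1 CPM changed 2-fold, the test called 84.5% of them and 17 unchanged genes. The simulated libraries varied independently with the fitted spread, so the simulation does not cover lower genes or effects shared by the pools of a line. The labels do not say whether pools shared parents or a collection day, so p-values measure the spread between these pools.

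The members and gene lists (34 tissues, 31 functions, 16 families, beside those set aside) were chosen with earlier results of these data known. Named were the 10 called genes in each direction with the largest changes (non-clone symbols, mean of at least 1 CPM, no overlap), up to 4 called members per direction and list, the 5 most abundant called genes in each direction, called genes among the 20 neighbours of panx1b on each side and the 3 most abundant members of a list. Further called members were added to complete a list, and others, marked in the text, after their values were seen. Gene symbols came from an annotation table that pairs 28223 of 31261 identifiers with symbols, and are printed as it gives them. No list was given a test. Some called list members are not reported here by name. Replicate numbers were not treated as pairing the lines. Alternatives were other scalings, filters, DESeq2 1.42.0, 1 cut-off alone, a replicate block, a fit of all 12 libraries and leaving out each library.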

Additional observations from a re-analysis of the deposited data

Results flagged for a closer look

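The effect of losing panx1b was compared between backgrounds for the 20 named genes with the largest changes, as the difference between the double knock-out minus panx1a knock-out change and the panx1b knock-out minus TL change in an edgeR fit of all 12 libraries. It differed for 18 of the 20 (adjusted p under 0.05), against 9.27% of 24261 genes tested. The genes were chosen for a large change in 1 of the 2 backgrounds, which by itself favours a difference, so the count is a description. The difference also depends on the level in the panx1a knock-out. With scaling over all 12 libraries, epx was at 1.13, 1.32 and 2.02 CPM in TL. In the panx1a knock-out it was at 6.77, 8.87 and 10.2 CPM. ca15c was at 12.4, 3.43 and 7.43 CPM in TL and at 2.59, 1.37 and 1.65 CPM in the panx1a knock-out. The levels of the other genes in that line are not described here. Where the change in the TL background was a fall, the difference (log2) was 5.75 for ly6m3, 4.76 for sult1st7, 5.10 for ca15c, 3.82 for taco1, 2.62 for DHRS7C, 2.37 for SLC14A2, 4.71 for myhc4, 3.12 for znf977 and 3.04 for coro2ab. Where it was a rise, the difference was -2.67 for epx, -1.56 for ccdc15, -4.66 for CRYM, -3.40 for znf1107, -3.10 for aifm5, -2.66 for clca1, -2.62 for mhc1uba, -4.62 for TEX11 and -4.47 for vmo1a. The urea transporter SLC14A2 fell in both backgrounds, by 4.01 and, between the double and the panx1a knock-out, by 1.65 on the log2 scale. CRYM went opposite ways, at 2.85 and -1.81, and the muscle myosin myhc4 likewise, at -3.81 and 0.88. ifi27.2 and CYTH3 did not pass the test of the difference (adjusted p = 0.223 and 0.686).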

How the results depend on the processing

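With the adjusted p-value alone, 1459 genes were lower and 1285 higher. Leaving out 1 library gave 466 to 1031 genes lower and 409 to 601 higher, fewest without TL replicate 3 (466 and 409), and 426 higher without panx1b-/- replicate 1. The other alternatives stayed within 1.5 times of the 786 and 696. Of 366 called genes in the named genes and lists, 171 kept both cut-offs in every one of the 14 alternatives that tested them, and 0 reversed. A gene that the filter of an alternative removed was not scored there, so low genes among the 171 met fewer alternatives. List medians kept their sign under other scalings in the lists described. Replicate numbers did not pair the libraries (correlations of same-numbered deviations 0.28, 0.05 and -0.02), and the replicate block gave 906 lower and 759 higher. With the other settings the test of the difference between backgrounds was passed by 17 or 18 of the 20 genes. DESeq2 called 1089 lower and 860 higher, and the count minimum of 10 in every library 615 and 593. krt4, not called, was called with DESeq2, library size alone, no minimum count and without panx1b-/- replicate 3. Genes under 1 CPM rest on few counts, so only large differences could be detected there.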

Other observations

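Among 92 genes of motile cilia, 4 rose and 1 fell (5.43% called, near the 5.96% of all genes, median log2 fold change 0.31), and 75 were positive. Without TL replicate 2 or 3 or panx1b-/- replicate 1 or 3, 2 members were called higher. CCDC39, which sets the spacing of the axoneme's repeat, fell from 53.8, 52.3 and 53.4 CPM to 9.50, 7.68 and 7.95 CPM (-2.67 ± 0.11, adjusted p = 1.48e-07), while hydin, of the central pair, rose from 19.8, 20.4 and 18.7 CPM to 52.2, 37.8 and 37.1 CPM (1.11 ± 0.14, adjusted p = 0.000502). Of 70 mitosis genes 68 were positive (median 0.41), but only 2 passed (2.86%, under the share over all genes), ECT2 and ndc80, and 13 passed without panx1b-/- replicate 2, whose ndc80 level of 9.50 CPM was the lowest of the mutants. A list of MHC, NITR, DICP and finTRIM genes with other TRIM genes gave 14 higher and 5 lower of 164 (11.6%), and 8 higher without TL replicate 3. One of those lower, trim63a (-0.73), is a muscle ubiquitin ligase and not an immune gene. These families share near-identical copies, so their counts are uncertain.

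The change between the double and panx1a knock-outs shares no library with the panx1b-/- and TL comparison. In it the list medians (log2) were 0.06 for exocrine pancreas (0.57 in the TL background), -0.40 for epidermis (0.20), 0.33 for liver plasma genes (0.31), -0.16 for heart muscle (-0.39), -0.19 for skeletal muscle (-0.20), -0.02 for glucocorticoid response (-0.23), 0.02 for immediate early genes (-0.44), -0.09 for the proteasome (-0.29) and 0.58 for lens (-0.27). The medians were 0.20 for structural photoreceptor genes (-0.19), 0.31 for the inner retina (0.06), 0.23 for neurons (-0.03) and -0.17 for lymphoid genes (0.47). All of these medians also depend on the levels in the panx1a knock-out. There amy2al2, scaled over all 12 libraries, was at 177, 140 and 175 CPM, against 42.3, 62.3 and 45.6 CPM in TL. The levels of other list members in that line are not described here. The differences between the medians of the backgrounds were not tested.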
